A study of Homo sapiens with 8 samples.

Results

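The keratin genes were taken as the protein-coding genes of GENCODE release 44 whose symbol is KRT followed by a number, with or without a letter A to C, and 55 of 20033 protein-coding genes met this rule. Of these, 27 lie on chromosome 12 in the type II keratin cluster, which also holds the type I gene KRT18, and 28 lie on chromosome 17 in the type I cluster. Each gene was given a window of the gene body plus 5 kb on either side, and an H3K27ac peak that overlapped a window by at least 1 base was counted for that gene. Neighbouring keratin genes are close together, so a single peak could fall in several windows. The windows held 30, 33 and 26 peaks in the WT libraries and 45, 40 and 37 in the CREBBP-KO libraries, of which 6 to 11 per library lay in more than 1 window.

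Keratins are the intermediate filament proteins of epithelial cells. A filament is built from pairs of a type I and a type II keratin, and which pair is made changes with the type of epithelium. Simple epithelia use KRT8 and KRT18 with KRT7, KRT19 or KRT20, of which the lining of the colon is known for KRT19 and KRT20 rather than KRT7, the basal layer of stratified epithelia uses KRT5, KRT14 and KRT15, and the KRT6 proteins with KRT16 and KRT17 are made under stress and during wound repair. Acetylation of histone H3 at lysine 27 (H3K27ac) marks active promoters and enhancers, and CREBBP is one of the enzymes that place it.

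The study asked how the loss of single chromatin regulators affects human somatic cells. H3K27ac ChIP-seq was performed in HCEC-1CT cells, a human colonic epithelial line immortalised with telomerase and CDK4, in 3 libraries of parental WT cells and 3 of CREBBP-KO cells, all carrying doxycycline-inducible Cas9. The CREBBP-KO cells are described as monoclonal for this assay, while another passage describes pooled clones, so an effect of clonal origin cannot be told apart from an effect of CREBBP. Nothing states that the 3 libraries of a genotype came from separate cultures, so p-values measure the spread between these libraries only. H3K27ac peaks do not show whether CREBBP itself was disrupted.

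Each library came with its own list of peaks, 86163 to 93567 (WT) and 99008 to 111697 (CREBBP-KO), with the fold of each peak over its local background. The lists hold no reads, so the depth behind each list is unknown. To compare libraries, each peak was given its percentile, which is the share of the peaks of its own list with a fold no higher than its own, and a gene was given the highest percentile in its window. Over the 14586 gene windows with a peak in all 6 libraries the median of this percentile was 89.6 in WT and 92.3 in CREBBP-KO, and 40.0% of windows were higher in CREBBP-KO without overlap of the libraries against 10.2% lower. Differences in percentile are therefore read beside the shift of the within-library rank, given in normal-score units (CREBBP-KO minus WT) with its standard error and limma adjusted p, whose median was 0.01 over all windows. In bulk cells, fewer cells with the mark and less of the mark per cell cannot be told apart.

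Keratin windows were sparsely marked. A peak was present in all 6 libraries in the windows of 17 keratin genes (30.9%) against 72.8% of all protein-coding genes, in all 3 WT libraries for 18 (32.7%, against 73.5%) and in all 3 CREBBP-KO libraries for 23 (41.8%, against 75.4%). No library had a peak for 28 keratin genes (50.9%), against 20.1% of all genes. Near a start the contrast was wider, as 5 keratin genes (9.09%) had a peak within 1 kb of an annotated start in all 6 libraries, namely KRT80, KRT8, KRT34, KRT15 and KRT17, against 61.5% of all genes. With only the start of the canonical transcript, a choice made after these values were seen, the genes were KRT80 and KRT34. The median of the keratin windows with a peak in all 6 libraries was 78.7 in WT and 83.8 in CREBBP-KO.

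**Figure D1:**
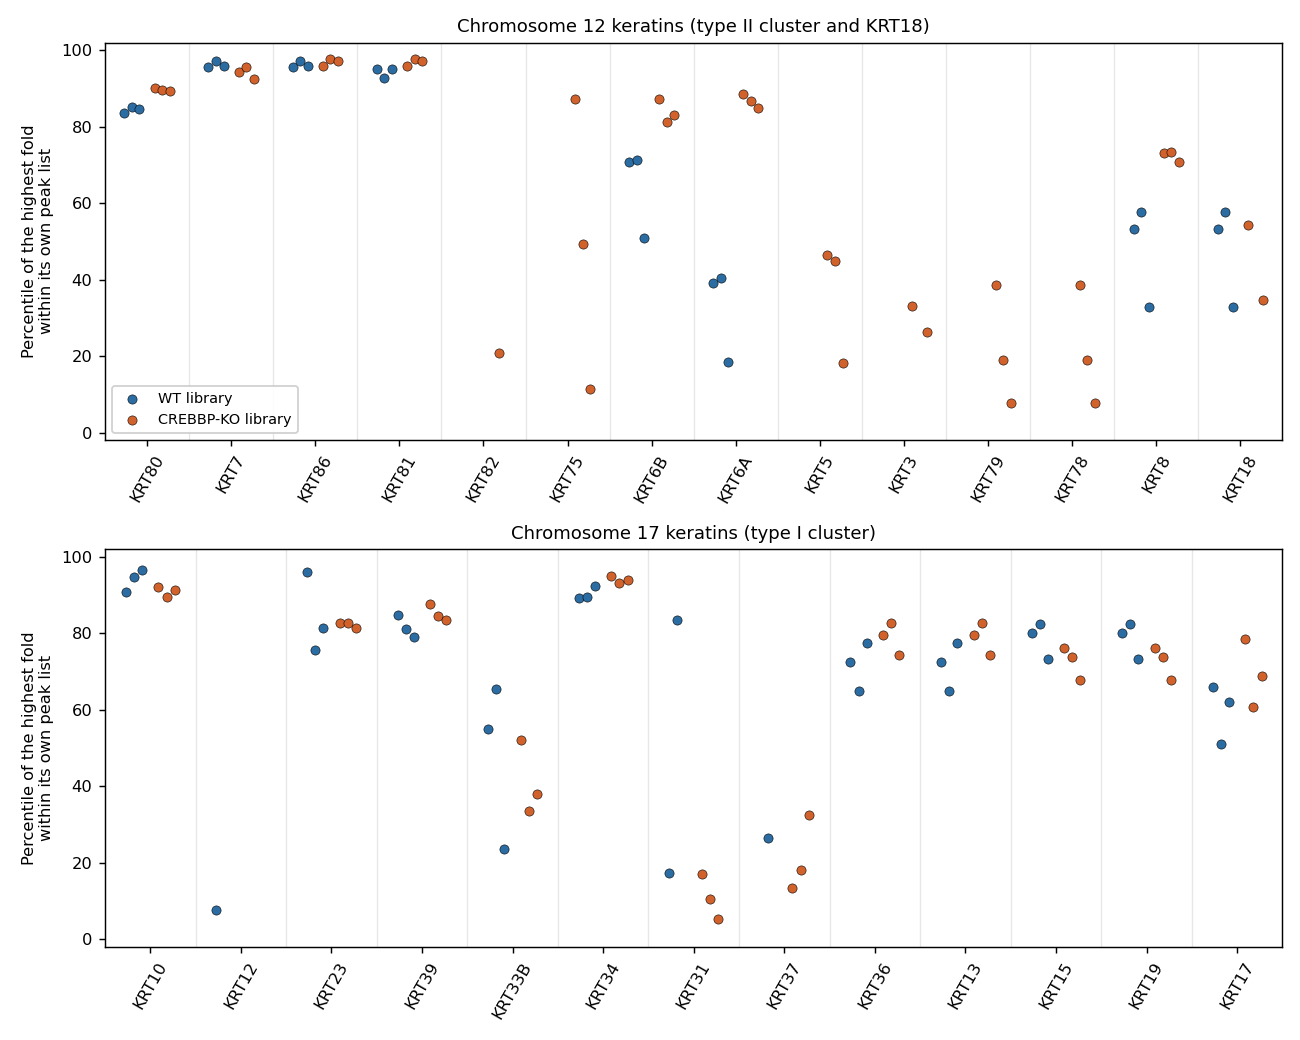
Percentile of the highest H3K27ac peak within its own list (vertical axis, 0 to 100) for every keratin gene with a peak in any library, in genome order, with 1 point per WT (blue) or CREBBP-KO (orange) library. KRT7, KRT86, KRT81, KRT10 and KRT34 sit near the top in both genotypes, KRT6A moves from at most 40.5 in WT to at least 84.8 in CREBBP-KO, and KRT75, KRT5, KRT79 and KRT78 have points in CREBBP-KO only.

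By group, 3 of 5 simple, 1 of 3 basal and 3 of 5 stress keratins had a peak in the window in all 6 libraries. So did 2 of 12 suprabasal, mucosal and corneal keratins, 6 of 17 hair and nail keratins and 0 of 9 hair root sheath keratins. A shared peak counted for each gene, as for KRT15 and KRT19. The highest WT peak in the KRT8 window lay at or near the KRT18 start. Among the genes with no peak in any library were KRT20, which marks differentiated cells of the gut surface, the basal keratin KRT14, the stress keratins KRT16 and KRT6C, and the epidermal keratins KRT1, KRT2 and KRT9. The longest stretch of the type II cluster without a peak in any library measured 275.4 kb and held 9 keratin genes, from KRT71 to KRT3 in map order. In the WT libraries alone the stretch grew to 368.8 kb and 13 keratin genes, from KRT5 to KRT78. In the type I cluster the longest such stretch was 168.1 kb and held 6, KRT222 and KRT24 to KRT28.

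The 250 bases before the start of 3 keratin genes are shown (RefSeq, GRCh38.p14, strand of the gene), because KRT8 had peaks on both sides of this start in all 3 CREBBP-KO libraries, KRT34 had a peak within 1 kb of its start in all 6 libraries, and KRT20 had none. They are at chr12:52926470-52926719 for KRT8, chr17:41382307-41382556 for KRT34 and chr17:40885243-40885492 for KRT20, all on the minus strand. The KRT8 start used here is an upstream one, as the canonical KRT8 transcript starts at chr12:52905076. The starts of KRT34 and KRT20 are the canonical ones. Capitals mark TATAAA, the letters of a TATA box, and none of the 3 held GGGCGG, the letters of a GC box, on either strand.
KRT8: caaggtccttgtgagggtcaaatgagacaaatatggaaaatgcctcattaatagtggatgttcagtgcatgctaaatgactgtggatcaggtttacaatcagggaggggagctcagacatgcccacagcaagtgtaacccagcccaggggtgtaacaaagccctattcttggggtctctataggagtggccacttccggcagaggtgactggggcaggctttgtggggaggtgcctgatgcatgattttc
KRT34: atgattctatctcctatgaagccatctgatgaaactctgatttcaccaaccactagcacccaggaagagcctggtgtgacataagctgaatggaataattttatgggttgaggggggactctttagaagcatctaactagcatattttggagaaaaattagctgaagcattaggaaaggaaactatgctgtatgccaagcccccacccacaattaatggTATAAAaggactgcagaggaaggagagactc
KRT20: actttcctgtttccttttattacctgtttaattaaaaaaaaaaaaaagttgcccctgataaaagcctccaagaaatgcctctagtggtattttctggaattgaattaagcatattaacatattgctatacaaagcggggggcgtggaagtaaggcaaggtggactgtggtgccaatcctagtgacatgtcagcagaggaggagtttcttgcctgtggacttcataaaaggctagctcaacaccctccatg
Of the 34 keratin genes with such a sequence, 20 (58.8%) held TATAAA on either strand, against 11.1% of 27305 genes, and 4 (11.8%) held GGGCGG, against 42.3%. The remaining keratin genes, among them KRT7, KRT18, KRT19, KRT6A and KRT17, had no entry.

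Among the simple keratins, KRT7, a type II keratin of ductal and glandular epithelia, carried the highest marks. Its percentiles were 95.7, 97.1 and 96.0 in WT and 94.2, 95.7 and 92.6 in CREBBP-KO. The ranges met at 95.7, and the shift of the window was -0.54 ± 0.19 (SE, n = 3 per genotype, limma adjusted p = 0.0416), so that KRT7 counted as lower in rank. The call was lost without any 1 of 5 libraries (WT 1, WT 2, WT 3, CREBBP-KO 1 or CREBBP-KO 3, adjusted p from 0.0554 to 0.151), and the sum of the folds in the window gave a shift of 0.14 (adjusted p = 0.363).

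The window of KRT8, the type II partner of KRT18, held different peaks in WT and in CREBBP-KO. GENCODE draws KRT8 from 52897187 to 52949954 on the minus strand, so the gene overlaps the start of KRT18. In WT the highest peak stood at percentile 53.3, 57.7 and 32.9 and lay at the KRT18 start or at most 162 bp from it, within an intron of both genes. In CREBBP-KO it stood at 73.1, 73.5 and 70.7 and lay 1598 to 1656 bp from an upstream KRT8 start, in the interval chr12:52924312-52926280, where WT had a peak in 1 library at percentile 4.96. The genotypes did not overlap (exact permutation test, p = 0.1, the smallest that 3 against 3 libraries allow), while the rank shift of 0.39 ± 0.19 missed the threshold (limma adjusted p = 0.135). A second interval beside this start, chr12:52926729-52927665, had peaks in the 3 CREBBP-KO libraries only, at percentiles 43.3, 65.7 and 52.1. No library had a peak within 5 kb of the canonical KRT8 transcript. With the sum of the folds in the window the KRT8 shift became 0.98 and passed the threshold (limma adjusted p = 0.0148).

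KRT18 itself had the peak within 1 kb of its canonical start at 53.3, 57.7 and 32.9 in WT and at 54.2 and 34.6 in CREBBP-KO 1 and 3, with none in CREBBP-KO 2. It lay over the start in WT 2 and 126 to 296 bp away in the others that had it. The values present in CREBBP-KO lay within the WT range, and without a peak in all 6 libraries KRT18 entered no test.

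KRT19, the smallest type I keratin, shared its highest peak with the basal keratin KRT15, which has an upstream start 399 bp from the summit. The canonical KRT15 start had no peak within 1 kb in any library, the closest lying 2190 to 2473 bp away. The shared peak, in an intron of KRT15, stood at percentile 80.2, 82.5 and 73.2 in WT and 76.2, 73.9 and 67.8 in CREBBP-KO. The ranges overlapped, and the shift of both windows was -0.63 (limma adjusted p = 0.0166). Without WT 1, WT 2 or CREBBP-KO 3 the call was lost (adjusted p from 0.0544 to 0.0732). A weaker interval 2516 bp from the KRT19 start, chr17:41529619-41531347, moved the other way, from 11.8, 28.1 and 24.7 in WT to 55.5, 62.4 and 56.0 in CREBBP-KO, a gap between the genotypes (p = 0.1 by exact permutation).

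Among the basal keratins KRT5 had no peak in WT and peaks at percentile 46.5, 44.9 and 18.3 in CREBBP-KO. They lay in chr12:52521530-52523025, upstream of the gene and 1844 bp from its start at the summit. KRT14, the usual partner of KRT5, had no peak in any library.

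Of the 3 stress keratins of the type II cluster, the windows of KRT6A and KRT6B rose in CREBBP-KO. KRT6A had its highest peak at percentile 39.0, 40.5 and 18.4 in WT and 88.6, 86.8 and 84.8 in CREBBP-KO, and the fold went from 3.53 ± 0.387 to 11.2 ± 0.34 (SD, n = 3). The genotypes were far apart, and the shift of 1.62 ± 0.19 (limma adjusted p = 7.8e-05) was the largest of the 17 keratin windows tested. The call held without any single library. The strongest WT peaks of the region lay outside this window, and with 10 kb on either side the shift was 0.75 (limma adjusted p = 0.00414). The peaks of CREBBP-KO reached the KRT6A start, within 1 kb in all 3 libraries, and no WT peak did.

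The KRT6B window stood at 70.9, 71.4 and 50.9 in WT and at 87.3, 81.2 and 83.0 in CREBBP-KO. Its peak lay past the end of the gene, with the summit 10475 to 10739 bp from the KRT6B start and nearer the KRT75 start. In WT 1, WT 2, CREBBP-KO 2 and CREBBP-KO 3 the summit was outside the window. The genotypes did not overlap, and the shift was 0.55 ± 0.19 (limma adjusted p = 0.0411). Without WT 3, CREBBP-KO 1 or CREBBP-KO 3 this call was lost (adjusted p from 0.083 to 0.163), as it was with the sum of folds (shift 0.30, adjusted p = 0.269) and without the trend in limma (adjusted p = 0.0501). KRT6C, which lies between KRT6B and KRT6A, had no peak. The 3 KRT6 genes are near copies of each other, and how reads matching several places were treated is not given in the sources used here, so their shares of signal are uncertain.

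KRT17, on chromosome 17, stood at 66.0, 51.2 and 62.2 in WT and 78.5, 60.8 and 69.0 in CREBBP-KO, with overlapping ranges and a shift of 0.00 (limma adjusted p = 0.996). Its partner KRT16 had no peak in any library. In the window values above, WT 3 was the lowest WT library for KRT8, KRT6A, KRT6B and the KRT15 and KRT19 peak, and its list was the shortest. The part of list length in these values was not tested beyond lists cut to the same length, where the calls for KRT6A and KRT6B held.

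Of the other keratins, KRT10, the type I keratin of differentiating epidermis, stood at 90.9, 94.9 and 96.5 in WT and 92.2, 89.5 and 91.4 in CREBBP-KO, with overlapping ranges and a shift of -0.65 ± 0.2 (limma adjusted p = 0.0214). Without WT 2, WT 3 or CREBBP-KO 2 the adjusted p was 0.0575 to 0.0822, and it was 0.136 when peaks were ranked by -log10 p and 0.131 with the sum of folds. The same peak tested as an interval gave -0.43, past no threshold (limma adjusted p = 0.0626). KRT80 ranged from 83.5 to 85.2 (WT) and from 89.4 to 90.2 (CREBBP-KO). The hair keratin genes KRT86 and KRT81 shared a peak in an intron of KRT86 with a WT range of 92.9 to 95.2 and a CREBBP-KO range of 95.8 to 97.7, and KRT34 ranged from 89.3 to 92.5 and from 93.2 to 95.2. These 3 peaks did not overlap between genotypes, yet none of the 4 windows passed the rank test, with shifts from -0.06 to 0.22. Within 1 kb of a start KRT80 did pass, with a shift of 0.72 (limma adjusted p = 0.00572) in place of 0.13 for the window.

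KRT36 and the mucosal keratin KRT13 shared a peak whose WT percentiles of 64.8 to 77.5 overlapped the CREBBP-KO range of 74.3 to 82.8. KRT39 ranged from 79.0 to 84.8 and from 83.4 to 87.8, and KRT33B from 23.7 to 65.4 and from 33.4 to 52.1. KRT23 ranged from 75.7 to 96.0 across WT and from 81.4 to 82.9 across CREBBP-KO, where the 96.0 of WT 1 came from a wide peak that reached the window only at its edge (80.7 for the peak with its summit inside). KRT31 had peaks at 17.4 and 83.5 in 2 WT libraries, the second again a peak at the edge, and at 5.4 to 17.2 in CREBBP-KO. KRT37 had a value in 1 WT library, at 26.4, and CREBBP-KO peaks at 13.4 to 32.5. Without a peak in all 6 libraries KRT31 and KRT37 entered no test, and none of the other windows named here passed it.

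In all, 2 of 17 keratin windows rose (11.8%, against 15.5% of all windows) and 4 fell (23.5%, against 14.9%), with a median keratin shift of 0.0. The percentiles of 6 keratin windows were higher without overlap (35.3%, against the 40.0% above) and 0 were lower (against the 10.2% above). As a set the windows tested were thus not set apart from the rest by these counts. Windows with peaks in all 3 CREBBP-KO libraries and no WT library were 4 of 55 (7.27%), against 0.988% of all genes, namely KRT75, KRT5, KRT79 and KRT78, and the reverse was seen for 0 keratin genes, against 0.15%. Only genes without a WT peak can enter the first count, and keratin genes had a peak in all 3 WT libraries less often (32.7%, against 73.5%). The 2 shares therefore rest on unlike bases. The peaks of these 4 windows were weak. KRT79 and KRT78 shared theirs, at 38.6, 18.9 and 7.8, and the count was 0 once the -log10 q had to reach 5. KRT75 reached 87.3 in CREBBP-KO 1 through the edge of the peak counted for KRT6B and stood at 49.2 and 11.4 in the others.

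To place the changes, overlapping or touching peaks of the 6 lists were merged into 143679 intervals, of which 56 overlapped a keratin window. Peaks were restricted to the 3 CREBBP-KO libraries in 5 of the 56 (8.93%, against 2.66% of all intervals) and to the 3 WT libraries in 0 (against 1.08%). The 5 lay in an intron of KRT80, over the start of KRT7, upstream of KRT5, between KRT79 and KRT78, and beside the upstream KRT8 start. The rank test used the intervals with a fold of at least 5 in all 3 libraries of a genotype and a peak in all 6. Of the 15 keratin intervals tested, 3 rose (20.0%, against 18.6% of 34847) and 3 fell (20.0%, against 18.7%). Among those that rose, the interval between KRT75 and KRT6B passed the fold filter through CREBBP-KO only. Among those that fell, the interval between KRT20 and KRT23 was a keratin interval only through a WT 1 peak at the edge of the KRT23 window.

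Sequences at the summits are shown for the highest interval in all 6 libraries of simple, basal or stress keratins that have one and for the largest shift downward, as 300 bases of hg38 on the plus strand centred on the median summit. They lie at chr12:52244317-52244616 for KRT7 (an intron), chr12:52441427-52441726 for KRT6B (between KRT75 and KRT6B), chr17:41521980-41522279 for KRT15 and KRT19 (an intron of KRT15), chr17:41621354-41621653 for KRT17 (an intron, with 61 coding bases) and chr17:40910257-40910556 for KRT23 (between KRT20 and KRT23). Capitals mark TGANTCA, the letters bound by AP-1, GGAATG, bound by TEAD factors, and GGGCGG, the GC box, on either strand, and no match overlapped another.
KRT7: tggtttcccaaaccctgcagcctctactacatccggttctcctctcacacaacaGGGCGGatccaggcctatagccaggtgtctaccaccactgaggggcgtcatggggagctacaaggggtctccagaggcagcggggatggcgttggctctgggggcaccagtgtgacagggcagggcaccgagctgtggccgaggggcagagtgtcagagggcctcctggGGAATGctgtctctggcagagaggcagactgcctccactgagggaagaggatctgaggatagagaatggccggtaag
KRT6B: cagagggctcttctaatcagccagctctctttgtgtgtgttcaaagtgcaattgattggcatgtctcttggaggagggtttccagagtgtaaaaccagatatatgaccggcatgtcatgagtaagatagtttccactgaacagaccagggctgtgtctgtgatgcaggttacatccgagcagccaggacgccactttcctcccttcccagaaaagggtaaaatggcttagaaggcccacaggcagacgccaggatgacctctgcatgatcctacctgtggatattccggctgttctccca
KRT15 and KRT19: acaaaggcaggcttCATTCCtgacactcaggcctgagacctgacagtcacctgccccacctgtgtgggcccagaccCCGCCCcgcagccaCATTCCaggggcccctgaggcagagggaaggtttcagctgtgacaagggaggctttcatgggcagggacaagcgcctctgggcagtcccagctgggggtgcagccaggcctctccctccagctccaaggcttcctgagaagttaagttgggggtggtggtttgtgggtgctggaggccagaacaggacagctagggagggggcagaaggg
KRT17: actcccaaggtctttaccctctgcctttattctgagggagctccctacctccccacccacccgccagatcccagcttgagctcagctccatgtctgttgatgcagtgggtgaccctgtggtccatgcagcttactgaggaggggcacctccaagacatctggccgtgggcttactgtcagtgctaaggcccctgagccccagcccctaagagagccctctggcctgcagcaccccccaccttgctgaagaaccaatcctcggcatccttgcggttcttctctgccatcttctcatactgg
KRT23: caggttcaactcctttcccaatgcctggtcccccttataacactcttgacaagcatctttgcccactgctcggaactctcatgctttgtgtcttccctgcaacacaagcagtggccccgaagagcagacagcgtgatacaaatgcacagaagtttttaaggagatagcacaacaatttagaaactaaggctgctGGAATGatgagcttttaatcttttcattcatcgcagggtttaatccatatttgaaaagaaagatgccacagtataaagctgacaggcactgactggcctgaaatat
The GGAATG letters occurred in the windows of KRT7 (1 match), KRT15 and KRT19 (2) and KRT23 (1), which are the 3 keratin intervals that fell. They also occurred at the summits of the KRT86 and KRT81 interval (shift 0.26) and the KRT34 interval (shift 0.25), neither of which passed the threshold. Over the 15 tested keratin intervals 5 (33.3%) held GGAATG, against 14.6% of all tested intervals, 2 (13.3%) held GGGCGG, against 23.2%, and 1 (6.67%) held TGANTCA, against 9.13%. These counts are descriptions of letters in a short stretch and carry no test.

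The KRT6A interval, chr12:52493023-52502528, rose by 1.12 ± 0.23 (limma adjusted p = 0.000825). Its percentiles were 69.6, 71.9 and 61.0 in WT and 88.6, 89.2 and 84.8 in CREBBP-KO, without overlap. The peaks covered 3236 to 3646 bases of it per WT library and 8270 to 8975 per CREBBP-KO library. The median summit lay 7334 bp upstream of the KRT6A start, and the strongest WT peaks lay outside the 5 kb window, so that the window value of KRT6A compares a weaker WT peak nearer the gene. Over the whole interval the WT folds were 6.49, 6.88 and 5.43.

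The interval between KRT75 and KRT6B, chr12:52439235-52443746, rose by 0.98 ± 0.27 (limma adjusted p = 0.00743), with the percentiles given for KRT6B. It passed the fold filter through CREBBP-KO only, as WT 3 had a fold of 4.52. With no filter on the fold the shift was 0.67 (limma adjusted p = 0.0118). KRT7 held intervals that moved in opposite directions. The one 2432 bp upstream of its start, chr12:52228705-52232851, went from 85.6, 84.4 and 82.9 in WT to 94.2, 95.7 and 89.8 in CREBBP-KO, without overlap and with a shift of 0.61 ± 0.18 (limma adjusted p = 0.0108, and 0.082 without CREBBP-KO 2). The next interval, chr12:52232872-52234294, spanned the KRT7 start and had peaks in CREBBP-KO only, at 29.1, 23.7 and 12.5. In CREBBP-KO 2 the closest peak lay 80 bp from the canonical start. The closest WT peaks lay 769, 947 and 1052 bp from that start.

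The intronic KRT7 interval, chr12:52243126-52245099, went from 95.7, 97.1 and 96.0 to 91.9, 95.3 and 92.6, without overlap and with a shift of -0.46 ± 0.16 (limma adjusted p = 0.0325). This call was lost without WT 2 (0.101), CREBBP-KO 1 (0.143) or CREBBP-KO 3 (0.0929), and without the trend in limma (0.0879). The highest KRT7 peak was thus the intronic one in all WT libraries, and in CREBBP-KO 1 and 2 it was the upstream one.

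On chromosome 17 the interval between KRT20 and KRT23, chr17:40907884-40917737, fell from 96.2, 98.3 and 96.8 in WT to 92.4, 92.8 and 92.3 in CREBBP-KO, all under the WT values (shift -0.70 ± 0.16, limma adjusted p = 0.00215). Its median summit, at chr17:40910407, lies outside every keratin window and 25165 bp from the KRT20 start, the nearest coding start. It counted as a keratin interval only through a WT 1 peak that reached the edge of the KRT23 window. The KRT15 and KRT19 interval fell by 0.64 on the normal-score scale (limma adjusted p = 0.045), a call lost without WT 1, WT 2, CREBBP-KO 2 or CREBBP-KO 3 (adjusted p of 0.108, 0.155, 0.0675 and 0.157), and with no filter on the fold (0.0761). The calls for KRT6A, for the interval between KRT75 and KRT6B and for the interval between KRT20 and KRT23 held without any single library.

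**Figure D2:**
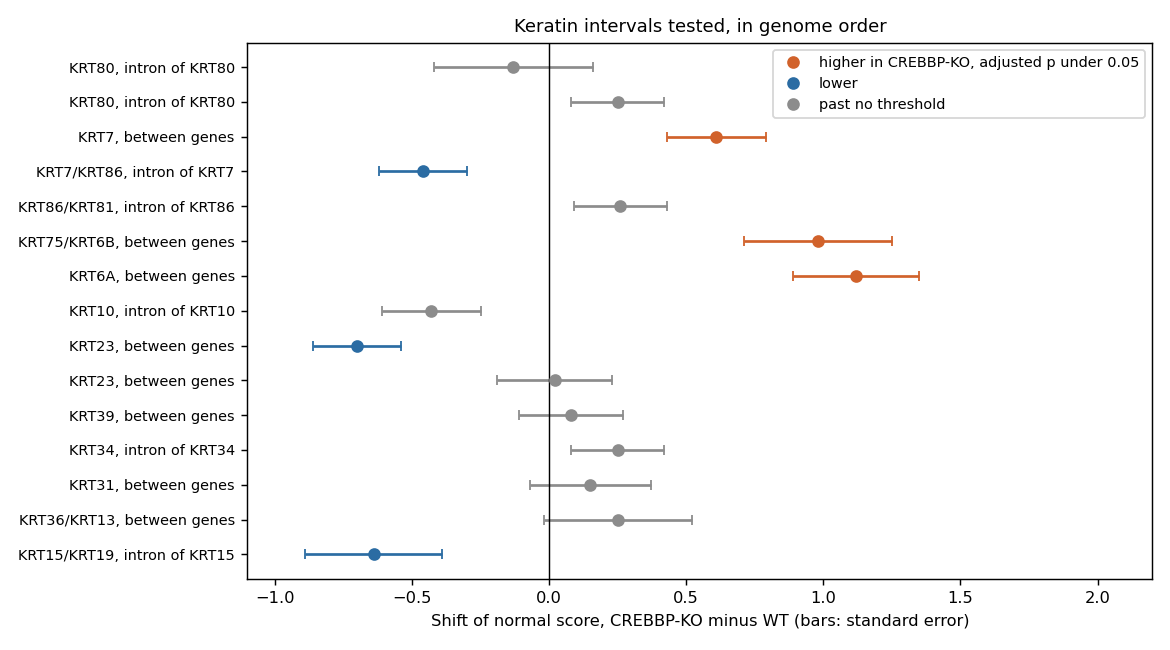
Shift of the within-library rank (horizontal axis, normal-score units, CREBBP-KO minus WT) with its standard error for the 15 keratin intervals tested, named by the keratin windows they overlap and their place. Orange marks the 3 that rose, blue the 3 that fell and grey those past no threshold. The KRT6A interval stands furthest right at 1.12. The KRT23 interval that stands furthest left, at -0.70, reaches the KRT23 window only at its edge.

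Over whole clusters, peaks covered more of the type II cluster and less of the type I cluster in CREBBP-KO. The type II cluster, chr12:52163996-52957906 with the flanks of 5 kb, held 21, 23 and 22 peaks in WT and 41, 35 and 34 in CREBBP-KO, and peaks covered 32.3, 36.5 and 33.8 kb against 64.3, 58.1 and 68.2 kb. The genotypes did not overlap in either measure (exact permutation test, p = 0.1 for both), and the covered length was 1.86 times higher in CREBBP-KO. In the stretches of equal length before and after the cluster it was 1.09 times higher in each. In the stretch after the cluster the genotypes also did not overlap in either measure (exact permutation test, p = 0.1 for both). Peaks there were 1.35 times more numerous in CREBBP-KO, against 1.67 times in the cluster. The difference of 14.7 peaks became 4.0 when a fold of 5 was required and 6.67 under the stricter q.

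The type I cluster, chr17:40649665-41629842, held 43, 51 and 43 peaks in WT and 43, 40 and 41 in CREBBP-KO, with overlapping ranges (exact permutation test, p = 0.3). The difference of -4.33 peaks was -7.67 with the same number of peaks from each list (exact permutation test, p = 0.1) and -1.67 without WT 2. The covered length was 80.1, 88.9 and 79.6 kb in WT and 62.0, 65.4 and 73.1 kb in CREBBP-KO, or 0.806 times the WT mean with no overlap (exact permutation test, p = 0.1), while the stretches before and after it were 1.16 and 1.13 times higher. Type II minus type I covered length was -48.7 ± 3.44 kb in WT and -3.3 ± 4.94 kb in CREBBP-KO (SD, n = 3), a difference of 45.4 kb (exact permutation test, p = 0.1). The comparisons of covered length with the neighbouring stretches and between the clusters were chosen after the data were seen.

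**Figure D3:**
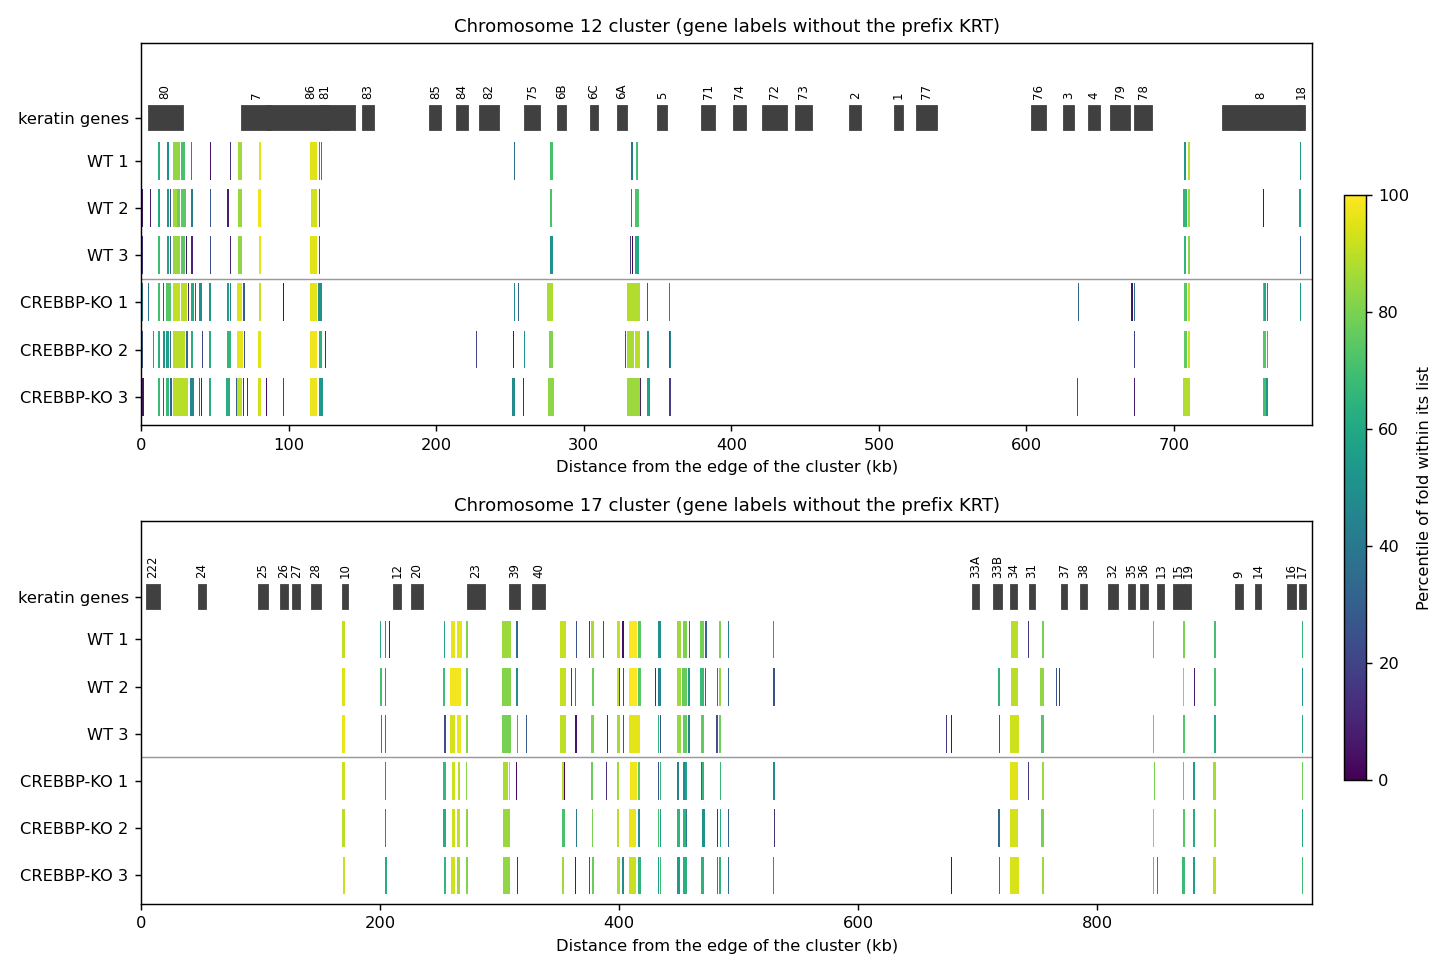
Keratin genes (dark bars, labelled without the prefix KRT) and H3K27ac peaks of each library along the chromosome 12 and chromosome 17 clusters, with distance in kb from the edge of the cluster and colour for the percentile of the fold. The peaks around KRT6A and KRT6B are wider and brighter in the 3 CREBBP-KO libraries, and the stretch from KRT71 to KRT77 is empty in all 6.

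Inside the type II cluster, intervals that touched a keratin window covered 27.8 ± 0.647 kb in WT and 49.7 ± 2.79 kb in CREBBP-KO (SD, n = 3), and the rest 6.58 ± 1.43 and 14.1 ± 2.48 kb. In the type I cluster the keratin intervals covered 34.1, 39.3 and 34.5 kb in WT and 30.3, 33.3 and 33.8 kb in CREBBP-KO, and the rest, most of it around the keratin-associated protein genes that build the hair matrix, 46.9 ± 2.39 and 34.4 ± 4.29 kb (SD, n = 3). The genotypes were apart in all 4 comparisons (exact permutation test, p = 0.1). Outside keratin windows 6 of 11 tested intervals of the type I cluster fell (against 18.7% of all intervals), near KRTAP3-2, KRTAP2-3, KRTAP4-8, KRTAP4-9, KRTAP4-11 and KRTAP4-6, and 1 rose (against 18.6%), 19743 bp from the KRT19 start (shift 1.09, limma adjusted p = 0.00108). The intervals near KRTAP4-8, KRTAP4-9, KRTAP4-11 and KRTAP4-6 passed the fold filter through WT only, the genotype where they were higher. The filter thus favoured a fall in them, and the count of 6 is not read as a result. Next to KRTAP4-8 the percentiles were 85.4, 85.6 and 83.7 in WT and 43.2, 65.6 and 54.9 in CREBBP-KO (shift -2.04, limma adjusted p = 2e-05).

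Of 21 genes for desmosomes and the proteins that link keratin to the membrane, 11 had a peak in all 6 libraries (against 72.8% of all genes), and 7, the desmosomal cadherins DSG1 to DSG4 and DSC1 to DSC3, had none in any (against 20.1%). PKP2 (shift 0.57) and PLEC (0.89) rose (against 15.5% of all windows), and PKP4 (-0.77) and ITGA6 (-0.72) fell (against 14.9%). Of 13 genes for other intermediate filaments, 8 had a peak in all 6 libraries, 0 rose and 1, NES, fell (-0.98). VIM, the intermediate filament of mesenchymal cells, had a WT range of 96.2 to 97.0 and a CREBBP-KO range of 97.6 to 98.4 (shift 0.15, limma adjusted p = 0.57), above KRT8 and KRT18 in every library.

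The label of the line was set beside marker lists. All 8 mesenchymal markers had a peak in the window in all 6 libraries, where 72.8% of all genes did. So did 5 of 8 epithelial, 3 of 8 colonic, 1 of 4 stratified and 3 of 3 leukocyte and endothelial markers. Within 1 kb of a start the counts were 8 mesenchymal, 3 epithelial and 0 colonic, stratified or leukocyte and endothelial markers, against 61.5% of all genes. The epithelial markers with a start peak in all 6 libraries were EPCAM, ESRP2 and CLDN7, and CDH1 had window peaks at percentiles 75.5 to 90.8. The colonic markers with a window peak in all 6 libraries were CDH17, LGALS4 and GPA33. ESRP1, ELF3, CDX2, VIL1, KRT20, KRT14 and DSG3 had no peak in any library. Of the markers tested, COL1A1 (0.97), COL1A2 (0.59) and ZEB1 (0.95) rose, 3 of 8 mesenchymal markers, against 15.5% of all windows. The other mesenchymal markers passed no threshold, with shifts from -0.22 (PDGFRA) to 0.31 (PDGFRB). GPA33 (0.53), 1 of 3 colonic markers tested, also rose. TP63 (-1.40), the regulator of stratified epithelium, CLDN4 (-1.25) and PTPRC (-1.23) fell, against 14.9% of all windows. They were 1 of 1 stratified, 1 of 5 epithelial and 1 of 3 leukocyte and endothelial markers tested. The part of these marker changes in the keratin changes was not tested.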

How the data were processed

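The data were the H3K27ac peak lists of 3 WT and 3 CREBBP-KO libraries; inputs were not analysed here. Reads were aligned by the authors to hg38 (BWA, in the ChIP-seq pipeline of nf-core), and MACS2 called narrow peaks in each library. The authors also downsampled reads; if the deposited lists precede or follow that step, and which control was used, is not given in the sources used here. The deposited lists give a fold, that is a linear ratio over local background, and the -log10 of p and q. The deposited score was not used.

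Peaks on chromosomes 1 to 22, X and Y were assigned to GENCODE release 44 windows. Ranks of the highest fold were turned into normal scores over 14586 windows or 34847 intervals and fitted with limma 3.58.1 (eBayes with a trend, R 4.3.3), with Benjamini-Hochberg adjustment over all of them and a threshold of 0.05. For single values a two-sided exact permutation test over libraries was run. The code was tested on simulated data. Python 3.11.15, numpy 2.4.6, pandas 2.3.3 and scipy 1.17.1 were used.

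The members, lists and tests were chosen with earlier results of these data known. Every keratin gene with a peak in all 3 libraries of a genotype was named; simple, basal and stress keratins and those past the threshold got values per library, and sequences followed the rule stated with them, except the 3 upstream sequences, chosen after their values were seen. One sequence that the rule selected is not reported here.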

Additional observations from a re-analysis of the deposited data

How the results depend on the processing

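The number of keratin genes with a peak in all 6 libraries was 10 for the gene body alone and 5 within 1 kb of a start, and 12 to 22 under the other alternatives. The 4 windows with peaks in CREBBP-KO only became 1 for the gene body alone and 1 within 1 kb of a start (KRT6A in both), 0 with a -log10 q of at least 5, 2 with lists of the same length (KRT75 and KRT5) and 2 with a fold of at least 5 (KRT6A and KRT8). The 2 keratin windows that rose became 0 for the gene body alone and 0 with the summit inside the window (limma, 0 at an unadjusted p under 0.05 in both), and 1 within 1 kb of a start (KRT80), with a -log10 q of at least 5 (KRT6B) and without the trend (KRT6A). Neither KRT6A nor KRT6B had a peak in all 6 libraries for the gene body, the start or the summit, so these counts rest on other genes, and KRT6A could not be tested with the stricter q. KRT6A lacked a WT peak in each of these except the summit, where CREBBP-KO 3 lacked one. The 4 that fell became 1 within 1 kb of a start and 1 with the sum of folds, where KRT7 reversed to 0.14. The cause of these changes was not tested. Leaving out 1 library gave 1 to 2 windows that rose and 1 to 4 that fell, and 2 to 3 intervals that rose and 1 to 3 that fell.

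WT and CREBBP-KO libraries share replicate numbers, but the deviations of same-numbered libraries correlated at only 0.023 to 0.043, so the numbers were not taken to pair the libraries, although each library correlated best with its own number. With the replicate block 2 windows rose and 4 fell, 3 intervals rose and 3 fell, and the cluster differences were 14.7 and -4.33 peaks (paired sign-flip test, exact p = 0.25 and 0.5, where 0.25 is the smallest possible). The block changed no call on the keratin windows or intervals.

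Peak lists carry no depth, and signal under the caller's threshold is not seen in them.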
